A study of Homo sapiens with 12 samples.

Results

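The genes described here form the NRF2 axis of redox defence: NFE2L2, KEAP1, HMOX1, NQO1, GCLC, GCLM, TXN, TXNRD1, SRXN1 and OSGIN1. They were chosen by symbol, as the regulator NRF2, its inhibitor and a set of its known targets, and each matched 1 Ensembl identifier, so that 10 of 32269 genes of the count matrix are followed. mRNA was sequenced from 2 human gastric cancer lines in 4 groups of 3 libraries, which the design text calls biological replicates: MKN1 cells treated with cantharidin sodium, untreated MKN1 cells, AGS cells treated with cantharidin sodium, and untreated AGS cells. Cantharidin, here as its sodium salt, is a toxin of blister beetles known to block the phosphatases PP2A and PP1. All cells are labelled as WT and were kept in RPMI-1640 with serum and penicillin-streptomycin. The sources used here give neither dose nor duration, and each line is a single established line, so a difference between lines is one between these 2 cultures. Libraries held 28604966 to 51604215 counts.

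NRF2, the product of NFE2L2, is a transcription factor that is held at low protein levels by KEAP1, a cysteine-rich adaptor that hands it to a ubiquitin ligase. When KEAP1 cysteines are oxidised or bound by electrophiles, NRF2 escapes breakdown, pairs with small Maf proteins and binds antioxidant response elements in genes of glutathione and thioredoxin metabolism, haem breakdown and quinone reduction. The pathway is therefore known to be controlled largely at the protein level, which mRNA counts do not measure, and in gastric and other carcinomas it is known for resistance to oxidants and drugs.

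The core of the antioxidant response element is written TGANNNNGC, or TGACNNNGC in a stricter form. Promoter windows from 250 bases before to 50 bases after a start site were taken from RefSeq (GRCh38.p14), which held 12 windows for 9 of the 10 genes and none for HMOX1. TGANNNNGC on either strand was found in 7 of these windows, from 6 genes, and in 41.8% of all 35116 windows of that length. TGACNNNGC was found in 4 windows, from KEAP1, GCLM and TXNRD1, and in 13.3% of all windows. A match is a run of letters and shows no binding. The windows below belong to KEAP1 and OSGIN1, whose response to treatment differed between the lines, and to GCLM, which shares a run with KEAP1. Capitals mark TGANNNNGC on either strand.
KEAP1, the second of 2 start sites, chr19:10502722-10503021, minus strand: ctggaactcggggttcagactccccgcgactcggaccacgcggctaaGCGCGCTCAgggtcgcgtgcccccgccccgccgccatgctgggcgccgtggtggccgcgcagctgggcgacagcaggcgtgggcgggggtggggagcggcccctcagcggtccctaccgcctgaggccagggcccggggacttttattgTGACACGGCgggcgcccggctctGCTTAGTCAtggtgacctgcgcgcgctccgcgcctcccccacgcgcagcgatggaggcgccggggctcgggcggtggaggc
OSGIN1, chr16:83952990-83953289, plus strand: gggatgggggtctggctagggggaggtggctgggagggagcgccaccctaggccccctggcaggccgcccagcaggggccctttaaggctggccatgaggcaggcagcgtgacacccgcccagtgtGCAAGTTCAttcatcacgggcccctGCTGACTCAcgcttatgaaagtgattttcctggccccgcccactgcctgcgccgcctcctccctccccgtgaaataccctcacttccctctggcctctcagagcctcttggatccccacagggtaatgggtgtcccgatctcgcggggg
GCLM, chr1:93909381-93909680, minus strand: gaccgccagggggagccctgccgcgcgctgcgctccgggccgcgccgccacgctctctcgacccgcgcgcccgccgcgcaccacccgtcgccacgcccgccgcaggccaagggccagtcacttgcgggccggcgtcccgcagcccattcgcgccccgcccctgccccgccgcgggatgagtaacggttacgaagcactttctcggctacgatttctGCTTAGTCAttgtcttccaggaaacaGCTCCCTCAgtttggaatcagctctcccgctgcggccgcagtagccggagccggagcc
KEAP1 and GCLM both carried GCTTAGTCA, at bases 220 to 228 and 217 to 225 of their windows. In OSGIN1 the match at bases 152 to 160, GCTGACTCA, overlapped TGANTCA, the form that AP-1 factors are known to bind. The first KEAP1 window, the first of 2 NFE2L2 windows and those of GCLC, TXN and SRXN1, 5 in all, held no match, which says only that these letters are not in those windows.

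Levels are CPM, counts relative to library size, as scaled with TMM factors. Changes are log2 fold changes with the standard error (SE) of edgeR's quasi-likelihood fit over 20280 genes, and adjusted p is by Benjamini-Hochberg over all of these with a threshold of 0.05. All 10 genes passed the filter on low counts. In treated AGS cells, KEAP1, HMOX1 and OSGIN1 fell and the other 7 genes did not pass, beside 11.6% of all tested genes that were lower and 9.21% that were higher. After removal of the GC and length trend, 1881 genes were lower and 2269 higher in AGS, against 2347 and 1867. Of the 10, 1 gene, GCLC, was higher at an unadjusted p under 0.05, DESeq2 called it higher and limma voom called 0 higher. In treated MKN1 cells 0 of the 10 passed, beside 3.9% of all genes lower and 2.8% higher. Scaled by library totals alone, 543 genes were lower and 754 higher in MKN1, against 791 and 567. At an unadjusted p under 0.05 there were 3 in MKN1, HMOX1 and NQO1 lower and OSGIN1 higher, while DESeq2 called 2 and limma voom 0. The median change of the 10 genes was −0.30 in AGS and −0.09 in MKN1, where all tested genes had −0.01 and 0.01. The ranges of treated and untreated libraries were apart for 7 of the 10 genes in AGS, beside 52.4% of all tested genes, and for 1 gene in MKN1, beside 21.4%. The fall of OSGIN1 and KEAP1 in AGS differed from the MKN1 effect, beside 8.38% of all genes whose effect was higher in MKN1 and 7.3% whose effect was lower.

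**Figure D1:**
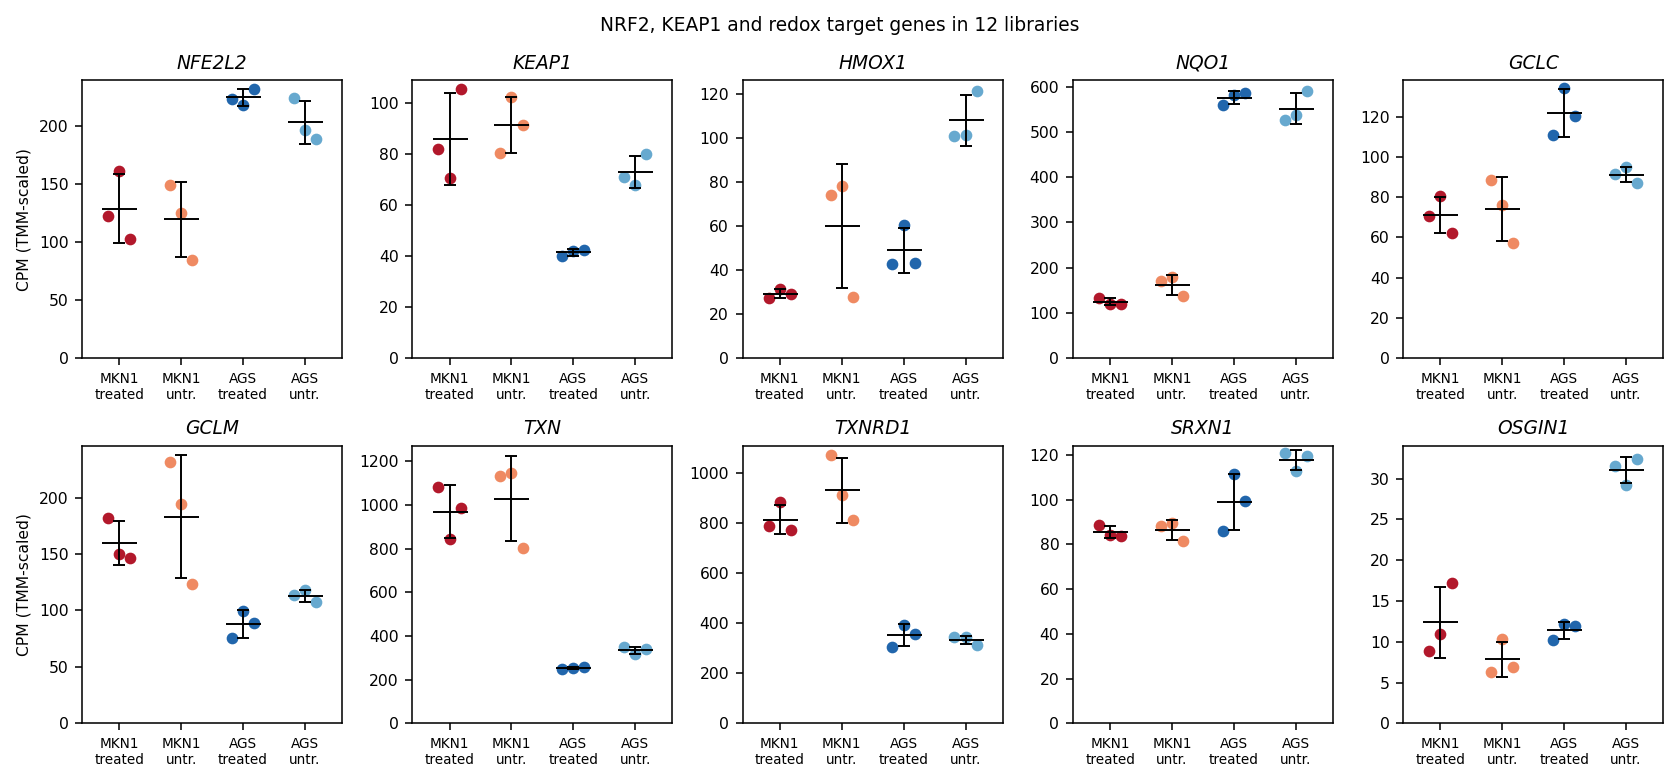
CPM of each gene (vertical axis, from 0) in treated and untreated MKN1 and treated and untreated AGS libraries; points are libraries, bars the mean and SD of 3. KEAP1, HMOX1 and OSGIN1 sit lower in treated than in untreated AGS, and the HMOX1 point of MKN1 untreated replicate 3, at 27.65 CPM, lies among the treated libraries.

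Before the single genes, 3 features of the libraries are described. MKN1 untreated replicate 3 stood apart: its log2 CPM correlated at 0.970 and 0.972 with the other untreated MKN1 libraries, which correlated at 0.985, and on the first principal component of MKN1 it lay at 6.725, beside 16.3 to 48.2 for treated and −52.5 and −54.4 for the other untreated libraries. Changes in AGS followed the GC content of transcripts, with a median log2 fold change of −0.29 among the 4042 genes of highest GC, from 57.8%, of which 22.7% were lower, and of 0.18 among the 4042 of lowest GC, up to 41.3%. Changes in MKN1 ran the same way but less steeply. There the median was −0.09 among the genes of highest GC, with 8.04% lower, and 0.05 among those of lowest GC, with 1.11% lower. KEAP1 at 60.3% GC, HMOX1 at 58.1% and OSGIN1 at 63.4% belong to the set of highest GC. Values after removal of the trend are given where they end or add a call, turn a direction or move a passing value by over 1.5 times. All 8 epithelial markers averaged at least 1 CPM in each group, with marker levels relative to library totals, but the lines were not alike in them. In untreated MKN1 and untreated AGS, EPCAM averaged 21.5 and 423 CPM, CLDN4 12.5 and 222 CPM, and CLDN7 9.85 and 256 CPM. ESRP1 averaged 1.3 and 315 CPM and CDH1 9.12 and 20.5 CPM, while KRT8, KRT18 and KRT19 were higher in untreated MKN1. Summed markers of blood cells (4 genes measured) were 0.0840 to 0.126 CPM in treated and 7.74 to 21.5 CPM in untreated AGS libraries, with 1 haemoglobin gene, at a mean of 0.0252 CPM in treated and 11.2 CPM in untreated AGS, carrying most of the untreated sum, and PTPRC at 0 and 0.271 CPM. Those of endothelium (4 genes) were 0.0305 to 0.364 CPM in treated and 0.602 to 4.47 CPM in untreated AGS libraries. Those of fibroblasts (6 genes) were 11.7 to 14.2 CPM in treated and 19.6 to 27.5 CPM in untreated AGS libraries. In MKN1 the fibroblast sums were higher, 58.8 to 99.9 CPM in treated and 96.5 to 144.8 CPM in untreated libraries. LUM alone averaged 69.2 CPM in treated and 102 CPM in untreated MKN1. COL1A1 was lower in MKN1, at 8.56 CPM in treated and 11.9 CPM in untreated cells, against 12 and 21.4 CPM in AGS. PDGFRB was also lower in MKN1, DCN and COL3A1 were higher, and COL1A2 was higher only in untreated cells. The part of these markers in the results within or between the lines was not tested.

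NFE2L2 (ENSG00000116044, chromosome 2, 177227595 to 177392697 in GRCh38, minus strand) encodes NRF2 itself. Its level in MKN1 was 123, 161 and 102 CPM in treated libraries and 149, 125 and 84.6 CPM in untreated ones. In AGS it was 224, 218 and 232 CPM in treated libraries and 224, 197 and 189 CPM in untreated ones. Treated and untreated libraries overlapped in both lines. The log2 fold change with treatment was 0.11 in MKN1 (SE 0.19, adjusted p = 0.787) and 0.15 in AGS (SE 0.19, adjusted p = 0.626). The 95% intervals, −0.31 to 0.52 in MKN1 and −0.27 to 0.56 in AGS, leave room for changes of either sign. Every MKN1 library lay below every AGS library. The deficit was −0.80 between treated lines (SE 0.19, adjusted p = 0.00235) and −0.77 between untreated lines (SE 0.19, adjusted p = 0.00345), and it was −1.23 and −1.15 after removal of the GC and length trend. Other genes, among them AGPS on the other strand, share 20.9% of its exon bases.

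KEAP1 (ENSG00000079999, chromosome 19, 10486120 to 10503741, minus strand) encodes the inhibitor of NRF2. In MKN1 it stood at 81.9, 70.5 and 106 CPM in treated libraries and 80.4, 103 and 91.4 CPM in untreated ones, which overlapped (log2 fold change −0.09, SE 0.14, adjusted p = 0.761). AGS gave 39.9, 42.15 and 42.3 CPM in treated libraries and 71.0, 67.9 and 79.9 CPM in untreated ones. Here all 3 treated libraries lay below all 3 untreated ones. KEAP1 fell to 41.4 ± 1.31 CPM in treated AGS, against 72.9 ± 6.20 CPM in untreated AGS (SD, n = 3 each), which was −0.82 on the log2 scale (SE 0.14, adjusted p = 0.00278). After removal of the GC and length trend the change was −0.52 (adjusted p = 0.00582), and KEAP1 passed under all 22 alternatives tried for AGS.

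The KEAP1 effect in MKN1 minus that in AGS was 0.73 (SE 0.20, adjusted p = 0.029). This difference did not pass without AGS treated replicate 1 (adjusted p = 0.0696), 2 (0.059) or 3 (0.0576), AGS untreated replicate 1 (0.0555) or 3 (0.0756), or MKN1 untreated replicate 1 (0.0739), nor with no filter on low counts (0.056). Its size over those 7 alternatives and the other 14 lay between 0.49 and 0.85. Untreated MKN1 and untreated AGS cells differed in KEAP1 by 0.33 (SE 0.14, adjusted p = 0.0588), while treated MKN1 exceeded treated AGS by 1.05 (SE 0.14, adjusted p = 2.5e-05), or by 0.34 after removal of the GC and length trend (adjusted p = 0.0129). The untreated difference passed in 10 of 22 alternatives. These were DESeq2 size factors (adjusted p = 0.0282), upper-quartile factors (0.024), library totals alone (0.0474), DESeq2's test (0.0224), the filter of 5 CPM (0.0247), a replicate block (0.0467), the 6 untreated libraries alone (0.0197), and the fits without MKN1 untreated replicate 1 (0.028) or treated replicate 2 (0.034) or 3 (0.0189) of MKN1. It had the opposite sign after removal of the GC and length trend (−0.15, adjusted p = 0.221).

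OSGIN1 (ENSG00000140961, chromosome 16, 83948282 to 83966332, plus strand) encodes an oxidative stress-induced growth inhibitor and had the lowest level per kilobase of exon of the 10 genes in every group. In MKN1 its level was 8.90, 11.0 and 17.3 CPM in treated libraries and 6.32, 10.3 and 6.96 CPM in untreated ones. The groups overlapped, since treated replicate 1 lay below untreated replicate 2, and the change of 0.66 (SE 0.24, adjusted p = 0.114) did not pass. In AGS it was 10.2, 12.2 and 11.9 CPM in treated libraries and 31.5, 29.3 and 32.45 CPM in untreated ones. No treated library came near an untreated one. OSGIN1 fell to 11.4 ± 1.08 CPM in treated AGS, against 31.1 ± 1.62 CPM in untreated AGS (SD, n = 3 each), and the change of −1.45 (SE 0.23, adjusted p = 0.00182) was the largest of the 10 genes in size.

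Across its alternatives in AGS the OSGIN1 change lay between −1.49 and −1.10, and it passed in all 22. The value nearest to 0 was that after removal of the GC and length trend (adjusted p = 0.00266), a setting under which the MKN1 change was 0.74 and passed (adjusted p = 0.0365). The effect in MKN1 minus that in AGS was 2.10 (SE 0.33, adjusted p = 0.00175), and it passed in all 21 alternatives, between 1.78 and 2.34. Untreated MKN1 cells held less OSGIN1 mRNA than untreated AGS cells (−1.98, SE 0.24, adjusted p = 8.37e-06). Between treated lines the difference was 0.12 (SE 0.23, adjusted p = 0.665), with an interval of −0.38 to 0.62, and it was −0.64 after removal of the GC and length trend (adjusted p = 0.0103). Without MKN1 treated replicate 3, the highest library, it was −0.20 (adjusted p = 0.4). Exons of another gene cover 13.9% of its exon bases.

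HMOX1 (ENSG00000100292, chromosome 22, 35380361 to 35394214, plus strand) encodes haem oxygenase 1, which breaks haem into biliverdin, iron and carbon monoxide and is a textbook marker of oxidative stress. MKN1 libraries gave 27.2, 31.5 and 28.9 CPM when treated and 74.35, 78.3 and 27.65 CPM when untreated. Only untreated replicate 3, the library that stands apart, reached into the treated range. In AGS the level was 42.95, 60.5 and 43.3 CPM in treated libraries and 101, 102 and 122 CPM in untreated ones, with no overlap. HMOX1 fell in treated AGS to 48.9 ± 10.0 CPM, against 108 ± 11.7 CPM in untreated AGS (SD, n = 3 each), which was −1.14 on the log2 scale (SE 0.29, adjusted p = 0.0158).

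This HMOX1 call in AGS ended without AGS treated replicate 1 (adjusted p = 0.0618), AGS treated replicate 3 (0.0617) or AGS untreated replicate 3 (0.0614), at changes of −1.06, −1.06 and −1.05, and after removal of the GC and length trend (−0.90, adjusted p = 0.0558). In MKN1 the HMOX1 change of −1.04 (SE 0.29, adjusted p = 0.0514) missed the threshold, and without MKN1 untreated replicate 3 it was −1.39 (adjusted p = 0.000273). It also passed with DESeq2 size factors (adjusted p = 0.0485), DESeq2's test (0.00563) and the filter of 5 CPM (0.0496). The difference between these effects, MKN1 minus AGS, was 0.10 (SE 0.41, adjusted p = 0.892), or −0.13 after removal of the GC and length trend. Its interval, −0.78 to 0.98, does not show that the lines responded alike. Treated MKN1 held less HMOX1 mRNA than treated AGS by −0.74 (SE 0.29, adjusted p = 0.036), and untreated MKN1 less than untreated AGS by −0.85 (SE 0.29, adjusted p = 0.0193). The treated difference did not pass without MKN1 treated replicate 1 (adjusted p = 0.0933), 2 (0.0587) or 3 (0.0813) or AGS treated replicate 2 (0.14), nor with upper-quartile factors (0.0601), limma voom (0.0535) or the filter of 5 CPM (0.056), and it was −1.36 after removal of the GC and length trend (0.00153). The untreated one did not pass without AGS untreated replicate 3 (0.0623) or with the 6 untreated libraries alone (0.0675), and it was −0.50 without MKN1 untreated replicate 3 (0.0107).

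**Figure D2:**
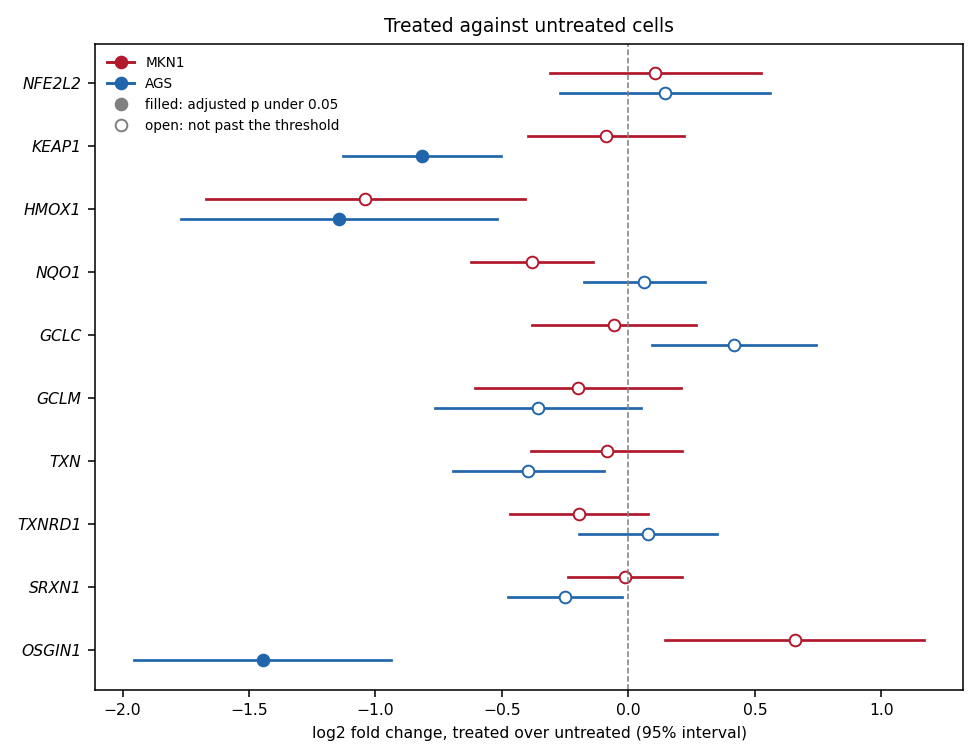
Log2 fold change, treated over untreated, of the 10 genes (horizontal axis) in MKN1 and in AGS with 95% intervals; filled points have an adjusted p under 0.05. Only KEAP1, HMOX1 and OSGIN1 in AGS are filled, and the OSGIN1 points lie on opposite sides of 0, at 0.66 in MKN1 and −1.45 in AGS.

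NQO1 (ENSG00000181019, chromosome 16, 69706996 to 69726951, minus strand) encodes a quinone reductase and is widely used as a readout of NRF2 activity. In MKN1 its level was 133, 119.9 and 120.1 CPM in treated libraries and 169.6, 179 and 137 CPM in untreated ones. All treated MKN1 libraries lay below all untreated ones, yet the change of −0.38 (SE 0.11, adjusted p = 0.0598) missed the threshold. Without MKN1 untreated replicate 3 it was −0.49 and passed (adjusted p = 0.00668), as it did after removal of the GC and length trend (−0.42, adjusted p = 0.0465) and by DESeq2's test (adjusted p = 0.00767). AGS had 560.3, 582 and 588 CPM in treated libraries and 528, 537.5 and 590.5 CPM in untreated ones. These overlapped, with a change of 0.06 (SE 0.11, adjusted p = 0.723). The effect in MKN1 minus that in AGS was −0.45 (SE 0.16, adjusted p = 0.0733), and it passed without MKN1 untreated replicate 3 (−0.55, adjusted p = 0.0111) and by DESeq2's test (adjusted p = 0.021). Between lines NQO1 differed more than any other of the 10 genes in treated cells: treated MKN1 lay below treated AGS by −2.21 (SE 0.12, adjusted p = 2.77e-09). Untreated MKN1 lay below untreated AGS by −1.77 (SE 0.11, adjusted p = 2.06e-08). A gene on the other strand shares 17.7% of its exon bases.

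GCLC and GCLM encode the catalytic and the modifier subunit of glutamate-cysteine ligase, the first and rate-limiting enzyme of glutathione synthesis. GCLC (ENSG00000001084, chromosome 6, 53497341 to 53616970, minus strand) stood at 70.6, 80.5 and 62.3 CPM in treated and 88.7, 76.1 and 57.4 CPM in untreated MKN1 libraries, which overlapped (log2 fold change −0.06, SE 0.15, adjusted p = 0.858). It stood at 111, 134 and 120.2 CPM in treated and 91.6, 94.8 and 87.1 CPM in untreated AGS libraries. Every treated AGS library was above every untreated one, but the change of 0.42 (SE 0.15, adjusted p = 0.0646) did not pass. It passed without MKN1 untreated replicate 1 (adjusted p = 0.034) or 3 (0.017), by DESeq2's test (0.0313), with a replicate block (0.0443) and with the 6 AGS libraries alone (0.00142). The GCLC effect in MKN1 minus that in AGS was −0.48 (SE 0.21, adjusted p = 0.145), and −0.63 without MKN1 untreated replicate 3 (adjusted p = 0.0192).

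GCLM (ENSG00000023909, chromosome 1, 93885205 to 93909456, minus strand) had 182, 150.0 and 146 CPM in treated and 231, 195 and 124 CPM in untreated MKN1 libraries. These overlapped, because untreated replicate 3 was the lowest of the 6 (log2 fold change −0.20, SE 0.19, adjusted p = 0.565). Treated AGS libraries had 75.4, 99.5 and 89.1 CPM and untreated ones 113, 118 and 107.5 CPM, with no overlap. The AGS change of −0.36 (SE 0.19, adjusted p = 0.198) did not pass. It passed without MKN1 untreated replicate 3 (adjusted p = 0.048), with the 6 AGS libraries alone (0.00872) and, at −0.52, after removal of the GC and length trend (adjusted p = 0.0303).

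The 2 subunits differed in which line held more of them. GCLM was higher in MKN1, by 0.86 between treated lines (SE 0.19, adjusted p = 0.00131) and by 0.70 between untreated lines (SE 0.19, adjusted p = 0.00539), which was 0.37 after removal of the GC and length trend (adjusted p = 0.045). GCLC was lower in MKN1 between treated lines, by −0.78 (SE 0.15, adjusted p = 0.000475), or by −1.17 after removal of the trend. Its untreated difference of −0.30 (SE 0.15, adjusted p = 0.0941) did not pass, except without MKN1 untreated replicate 1 (−0.43, adjusted p = 0.0186) or after removal of the GC and length trend (−0.70, adjusted p = 0.000548).

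TXN (ENSG00000136810, chromosome 9, 110243811 to 110256640, minus strand) encodes thioredoxin, the small protein that reduces disulfides in other proteins, and had the highest level per kilobase of exon of the 10 genes in every group. MKN1 libraries held 1081, 841 and 984 CPM when treated and 1134, 1145 and 803 CPM when untreated, which overlapped (log2 fold change −0.09, SE 0.14, adjusted p = 0.761). AGS libraries held 249, 254 and 260.0 CPM when treated and 348.5, 316 and 339 CPM when untreated. All treated AGS libraries lay below all untreated ones. The AGS change of −0.40 (SE 0.14, adjusted p = 0.0591) missed the threshold, and it passed without MKN1 untreated replicate 3 (adjusted p = 0.0139) or treated replicate 1 (0.0481) or 2 (0.0451) of MKN1, with library totals alone (0.0447), by DESeq2's test (0.0323) and with the 6 AGS libraries alone (0.000602). After removal of the GC and length trend it was −0.53 (adjusted p = 0.00956). TXN was higher in MKN1 by 1.93 between treated lines (SE 0.14, adjusted p = 7.06e-08) and by 1.62 between untreated lines (SE 0.14, adjusted p = 3.65e-07).

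TXNRD1 (ENSG00000198431, chromosome 12, 104215779 to 104350305, plus strand) encodes the selenoprotein that reduces thioredoxin with NADPH. Its level in MKN1 was 788.5, 884 and 774 CPM in treated libraries and 1073, 912 and 815 CPM in untreated ones. AGS libraries had 306, 394 and 359 CPM when treated and 344, 344 and 315 CPM when untreated. Treated and untreated libraries overlapped in both lines, at log2 fold changes of −0.19 in MKN1 (SE 0.13, adjusted p = 0.382) and 0.08 in AGS (SE 0.13, adjusted p = 0.695). Like TXN, it was higher in MKN1, by 1.21 between treated lines (SE 0.13, adjusted p = 2.17e-06), or 0.78 after removal of the GC and length trend, and by 1.48 between untreated lines (SE 0.13, adjusted p = 3.44e-07).

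SRXN1 (ENSG00000271303, chromosome 20, 646615 to 653370, minus strand) encodes sulfiredoxin, which restores over-oxidised peroxiredoxins. It varied least: the 4 group means of its log2 CPM spanned 0.46, against 2.22 for NQO1. MKN1 libraries had 88.6, 84.3 and 84.0 CPM when treated and 88.35, 89.5 and 81.5 CPM when untreated, which overlapped (log2 fold change −0.01, SE 0.10, adjusted p = 0.954). In AGS it was 86.1, 111 and 99.5 CPM in treated libraries and 121, 113 and 119.6 CPM in untreated ones. The AGS groups did not overlap, and the change of −0.25 (SE 0.10, adjusted p = 0.108) passed with the 6 AGS libraries alone (adjusted p = 0.0315) and under no other alternative. Untreated MKN1 cells held less SRXN1 mRNA than untreated AGS cells (−0.45, SE 0.10, adjusted p = 0.00208), and the difference was −0.90 after removal of the GC and length trend. Between treated lines the difference was −0.21 (SE 0.10, adjusted p = 0.092), and it passed without AGS treated replicate 1 (−0.30, adjusted p = 0.0291) and after removal of the GC and length trend (−0.82). Another gene on the same strand covers 85.0% of the SRXN1 exon bases and held 0 to 6 counts in a library. As the counting tool is not given, these counts do not show how reads of the shared bases were handled.

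Between the lines, then, the genes split. In treated cells KEAP1, GCLM, TXN and TXNRD1 were higher in MKN1, 4 of 10 beside 36.8% of all tested genes, and NFE2L2, HMOX1, NQO1 and GCLC were lower, 4 of 10 beside 31.4%. In untreated cells GCLM, TXN and TXNRD1 were higher in MKN1, 3 of 10 beside 34.9% of all genes, and NFE2L2, HMOX1, NQO1, SRXN1 and OSGIN1 were lower, 5 of 10 beside 31.4%. The median over the 10 genes was −0.045 between treated and −0.37 between untreated lines, where all tested genes had 0.08 and 0.04. After removal of the GC and length trend, all genes split into 5432 higher and 9441 lower between treated lines, against 7456 and 6362, and into 5327 higher and 9268 lower between untreated lines, against 7082 and 6370. The members' shares lie near the background, so they are no result about these genes as a set. The lines also differ in lineage markers: 7 squamous markers summed to 4806 to 6684 CPM in treated MKN1, 4512 to 8780 CPM in untreated MKN1, 105 to 143 CPM in treated AGS and 178 to 211 CPM in untreated AGS. KRT5 averaged 0 CPM in untreated AGS. Of 7 gastric and intestinal markers measured, 3 reached 1 CPM in MKN1, where HNF4A, TFF1 and LGALS4 did not, and 6 in treated and 7 in untreated AGS. The part of lineage in the redox differences was not tested.

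**Figure D3:**
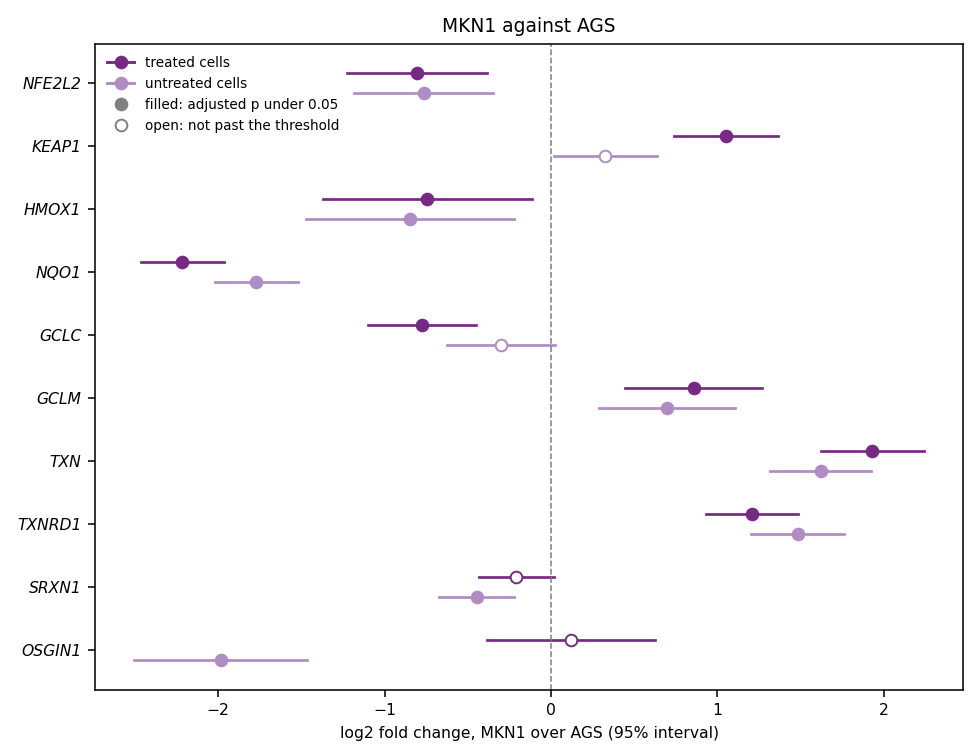
Log2 fold change, MKN1 over AGS, of the 10 genes (horizontal axis) in treated and in untreated cells with 95% intervals; filled points have an adjusted p under 0.05. TXN and TXNRD1 lie right of 1 and NQO1 left of −1 in both states, while OSGIN1 is at 0.12 in treated and −1.98 in untreated cells.

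Levels can be set against each other only per length. The places of genes with shared exon bases, above all SRXN1, also depend on how reads of those bases were counted. Per kilobase of exon, MKN1 ran from TXN at 848 ± 105 CPM in treated and 899.7 ± 170.3 CPM in untreated cells, through TXNRD1 at 122 ± 8.91 and 139 ± 19.4 CPM, to OSGIN1 at 3.58 ± 1.26 and 2.27 ± 0.621 CPM. In AGS the second place belonged to NQO1, at 177 ± 4.46 CPM per kilobase in treated and 169.7 ± 10.3 CPM in untreated cells, behind TXN at 223 ± 4.89 and 293 ± 14.8 CPM. OSGIN1 closed the order there at 3.30 ± 0.313 CPM per kilobase in treated and 8.98 ± 0.470 CPM in untreated cells (all SD, n = 3 each). In untreated MKN1 the middle of the order ran NQO1, GCLM, SRXN1, HMOX1, KEAP1 and NFE2L2. Each overlapped its neighbour in CPM per kilobase, but genes further apart could be clear of each other. NQO1 stood above SRXN1, HMOX1, KEAP1 and NFE2L2 in every library, and SRXN1 above KEAP1 and NFE2L2. In untreated AGS, TXNRD1, HMOX1 and SRXN1 overlapped in turn, as did GCLM and KEAP1, while NFE2L2, GCLC and OSGIN1 each stood clear of their neighbours.

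Ratios within a library do not depend on its scaling, but the GC and length trend was not removed from them. KEAP1 and HMOX1, of 60.3% and 58.1% GC, are here set against NFE2L2, of 45.6% GC. After removal of the trend, the AGS change of KEAP1 alone was −0.52, against −0.82. That of HMOX1 was −0.90, against −1.14, and that of NFE2L2 was 0.14, against 0.15. KEAP1 over NFE2L2, the inhibitor against its client, was 0.668, 0.437 and 1.03 in treated and 0.539, 0.822 and 1.08 in untreated MKN1 libraries, which overlapped. It was 0.1785, 0.193 and 0.182 in treated and 0.317, 0.345 and 0.423 in untreated AGS libraries, with no overlap. The mean log2 ratio of KEAP1 to NFE2L2 changed by −0.22 in MKN1 (exact permutation p = 0.7) and by −0.96 in AGS (exact permutation p = 0.1). The MKN1 value was 0.087 without MKN1 treated replicate 2, 0.011 without MKN1 untreated replicate 3, −0.53 without MKN1 treated replicate 3 and −0.49 without MKN1 untreated replicate 1. With 3 libraries against 3, 0.1 is the smallest two-sided p this test can give, and over the 16 comparisons of ratios it adjusts to 0.16, so none could pass.

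GCLC over GCLM was 0.389, 0.5365 and 0.426 in treated and 0.384, 0.391 and 0.464 in untreated MKN1 libraries, and 1.47, 1.35 and 1.35 in treated and 0.809, 0.8045 and 0.810 in untreated AGS libraries. Its log2 changed by 0.12 in MKN1, where the groups overlapped (exact permutation p = 0.6) and the value was −0.017 without MKN1 treated replicate 2, and by 0.78 in AGS, where they did not (exact permutation p = 0.1). TXN over TXNRD1 changed by 0.11 in MKN1 (exact permutation p = 0.7) and by −0.47 in AGS (exact permutation p = 0.1). HMOX1 over NFE2L2 changed by −1.02 in MKN1 and by −1.31 in AGS (exact permutation p = 0.1 for each), and its libraries overlapped in neither line.

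**Figure D4:**
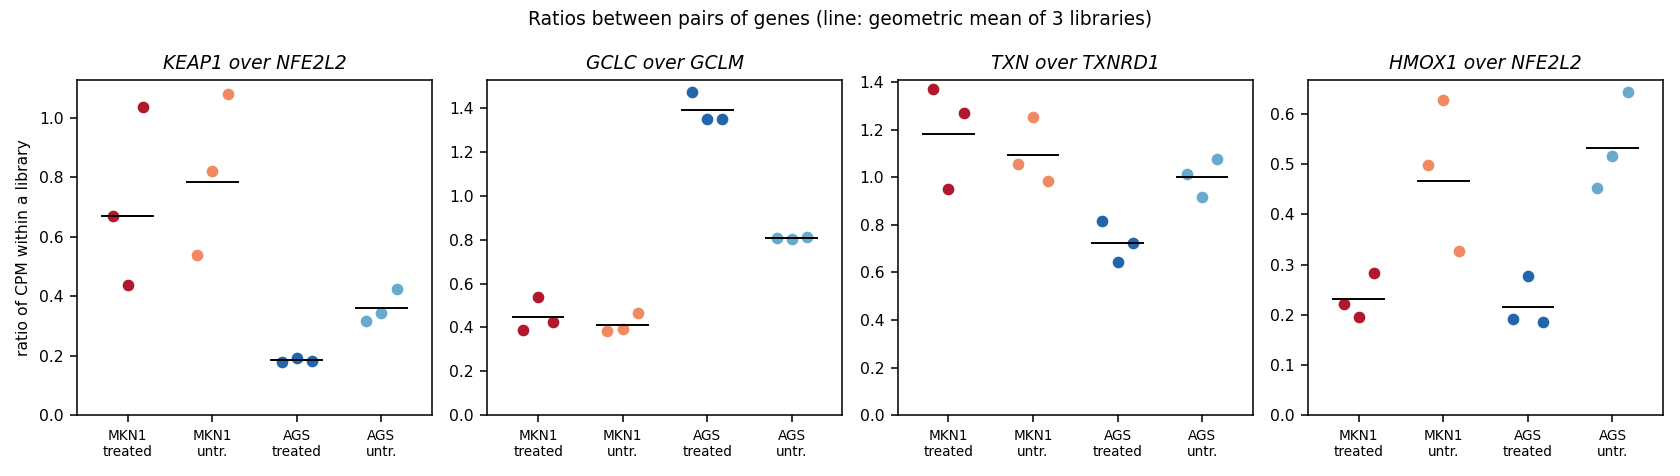
Ratios of CPM of 2 genes within a library (vertical axis, from 0) in treated and untreated MKN1 and treated and untreated AGS; points are libraries and lines geometric means of 3. GCLC over GCLM is above 1 in the 3 treated AGS libraries and below 1 in the other 9.

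Other genes of the pathway were taken from 7 lists of 68 genes, for which values in parentheses are log2 fold changes, treated over untreated, unless named otherwise. Their counts stand beside the shares of all tested genes given above, 11.6% lower and 9.21% higher in AGS and 3.9% lower and 2.8% higher in MKN1. List counts with the 6 AGS libraries alone stand beside a larger background. In that fit 4328 of all genes were lower and 4040 higher, against 2347 and 1867. Of 14 regulators and partners of NRF2, 2 rose and 4 fell in AGS (median −0.05). DPP3, a peptidase that binds KEAP1 in competition with NRF2, fell to 43.7 ± 1.54 CPM in treated AGS, against 74.2 ± 3.85 CPM in untreated AGS (log2 fold change −0.76, adjusted p = 0.00141). NFE2L3, a relative of NRF2, rose to 80.2 ± 13.1 CPM, against 46.5 ± 2.73 CPM (0.79, adjusted p = 0.00236). In MKN1, 0 of the 14 passed by edgeR, DESeq2 or limma voom, and 0 at an unadjusted p under 0.05 (median 0.03). The 2 that rose were 1 without AGS untreated replicate 1 or 3 or AGS treated replicate 2. Of 13 genes of glutathione synthesis and use, 4 fell in AGS (median −0.25), led by the peroxidase gene GPX2, at 46.9 ± 4.05 CPM in treated and 96.3 ± 6.42 CPM in untreated AGS (−1.04, adjusted p = 0.000169), and the transferase gene GSTM3 (−0.60, adjusted p = 0.00916). This count was 2 without AGS untreated replicate 3 or AGS treated replicate 2 or 3 and after removal of the GC and length trend, and 8 with the 6 AGS libraries alone. In MKN1, GPX4, which reduces lipid peroxides, was the 1 that fell, at 81.6 ± 15.7 CPM in treated and 143 ± 17.3 CPM in untreated cells (−0.81, adjusted p = 0.00826; median −0.07). That count was 0 with the 6 MKN1 libraries alone and 2 without MKN1 untreated replicate 3.

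Of 13 thioredoxin and peroxiredoxin genes, 6 fell in AGS (median −0.32), with PRDX1, a peroxiredoxin, at 433 ± 25.6 CPM in treated and 743 ± 65.5 CPM in untreated AGS (−0.78, adjusted p = 0.00578) and TXNL1 (−0.43, adjusted p = 0.00758). The 6 became 3 without AGS untreated replicate 3 or AGS treated replicate 2, and 9 with the 6 AGS libraries alone. TXNRD2, 1 of the 6, kept its call in 6 of 22 alternatives and SESN1 in 15. In MKN1, 1 rose, SESN2, a stress-induced sestrin, at 52.1 ± 31.4 CPM in treated and 14.0 ± 6.01 CPM in untreated cells, whose libraries overlapped (1.90, adjusted p = 0.022; median 0.04). Its call ended without MKN1 untreated replicate 1 or 2 or MKN1 treated replicate 2 or 3, with the 6 MKN1 libraries alone and with limma voom (adjusted p up to 0.126). Of 6 genes of NADPH supply, 4 fell in AGS (median −0.46), among them the pentose phosphate genes TKT, TALDO1 and PGD. TKT was at 212 ± 13.6 CPM in treated and 369 ± 23.3 CPM in untreated AGS (−0.80, adjusted p = 0.00141). In MKN1, IDH1, which makes NADPH from isocitrate, was the 1 that rose (0.84, adjusted p = 0.000899; median 0.12), a call lost with the 6 MKN1 libraries alone.

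Of 12 other targets of detoxification and export, 2 fell and 1 rose in AGS (median −0.46). CBR1, a carbonyl reductase, fell (−0.54, adjusted p = 0.00723), and ABCC3, an exporter of conjugates, rose (1.51, adjusted p = 0.0087). The 2 that fell became 1 without any 1 AGS library or MKN1 untreated replicate 2, and 8 with the 6 AGS libraries alone. TRIM16L, 1 of the 2, kept its call in 12 of 22 alternatives. It lost the call also with DESeq2 size factors, with library totals alone and with no filter. In MKN1 5 fell (median −0.68), among them AKR1C3, an aldo-keto reductase, at 11.8 ± 3.86 CPM in treated and 42.3 ± 11.0 CPM in untreated cells (−1.85, adjusted p = 0.00268), and AKR1B10 (−1.84, adjusted p = 0.028). The AKR1B10 call ended without MKN1 untreated replicate 1 or 2 or MKN1 treated replicate 2, and with the 6 MKN1 libraries alone (adjusted p up to 0.144). The 5 became 1 without any 1 of the same 3 libraries, 3 without MKN1 treated replicate 3, 2 without any 1 AGS library, 1 with the 6 MKN1 libraries alone, and 7 without MKN1 untreated replicate 3 and by DESeq2's test. AKR1C1 and EPHX1 kept their calls in 9 of 22 alternatives and AKR1C2 in 5 of 21, and each lost its call with library totals alone and with no filter. Of 6 genes of haem and iron handling, FTL, the ferritin light chain gene, fell in AGS (−0.66, adjusted p = 0.00212; median 0.145), and 3 fell in MKN1 (median −0.38), led by the biliverdin reductase genes BLVRB (−1.06, adjusted p = 0.002) and BLVRA (−0.70, adjusted p = 0.0389). BLVRA passed in 10 of 22 alternatives and ended without any 1 AGS library, MKN1 untreated replicate 1 or 2, or MKN1 treated replicate 2, with library totals alone, no filter or the 6 MKN1 libraries alone (adjusted p up to 0.182). Without any 1 of these libraries the 3 became 1, and with the 6 MKN1 libraries alone 0. Of 3 superoxide dismutase and catalase genes measured, 0 passed in either line by edgeR, with 1 lower in AGS and 1 in MKN1 at an unadjusted p under 0.05. DESeq2 called 1 lower in MKN1 and 0 in AGS, and limma voom 0 in both.

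**Figure D5:**
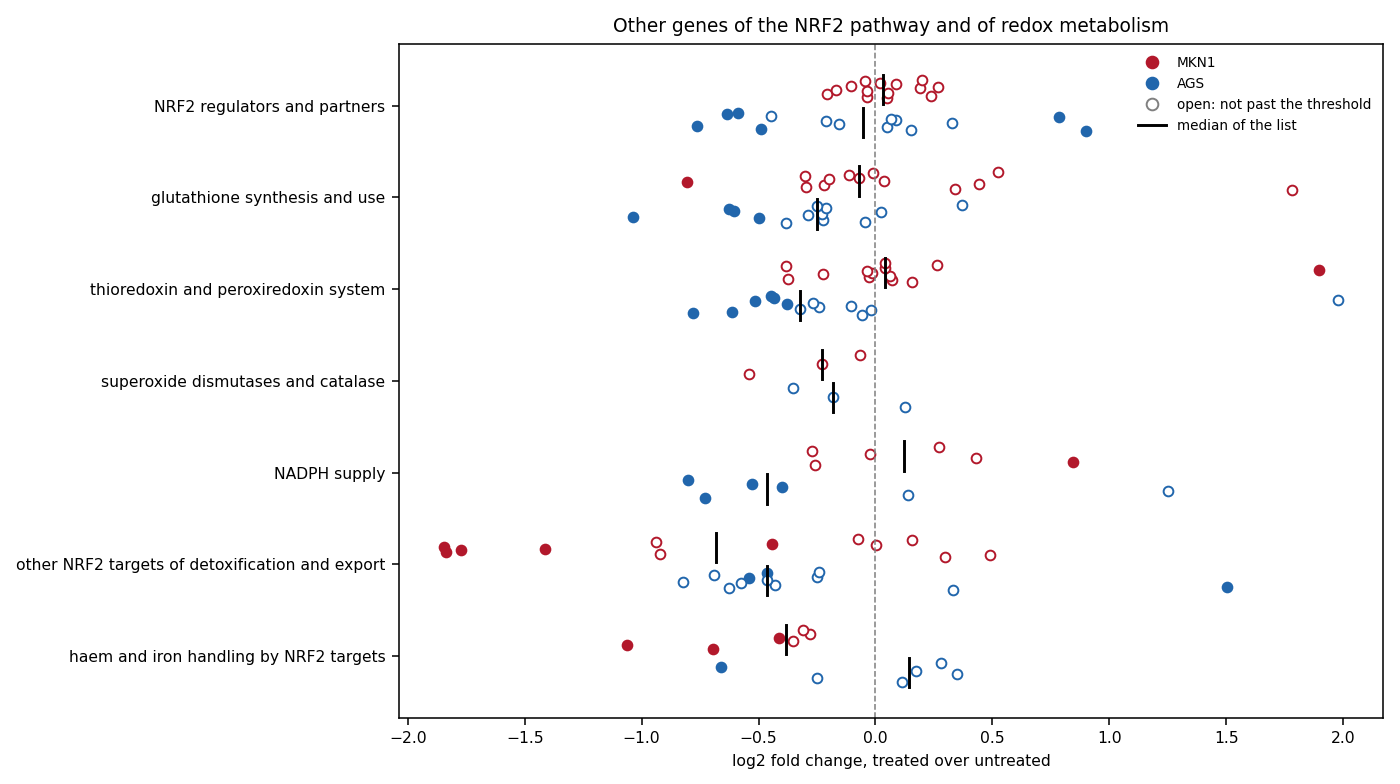
Log2 fold change, treated over untreated (horizontal axis), of the tested genes of each list in MKN1 and in AGS; filled points have an adjusted p under 0.05 and black bars are list medians. Filled AGS points of glutathione, thioredoxin and NADPH genes lie below 0, and the filled MKN1 points furthest below 0 belong to detoxification genes.

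For the 3 genes of widest range over the 4 groups, the closest patterns were sought among 12014 genes by the mean absolute difference of centred log2 CPM over 12 libraries. The genes near NQO1 included SHC1 (0.09) and ETFA (0.11). TXN was nearest to TNFAIP1 (0.11), MRPS24 (0.11) and PRPF4 (0.12). OSGIN1 had less close neighbours, BRME1 (0.22), ZC3H4 (0.22) and MSRB1 (0.24). These are descriptions of likeness across 2 lines and 2 states.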

How the data were processed

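The authors deposited counts for each gene, which their whole numbers and differing column totals show to be raw. Per the labels' protocols, TRIzol RNA went into NEBNext Ultra libraries, a kit that does not mark the strand. HISAT2 2.0.4 aligned the reads to hg38/GRCh38, per the submitters' processing notes. The sources used here give no counting tool, annotation release or strand setting, so reads of genes sharing exons could not be told apart.

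Counts were fitted in edgeR 4.0.16 (R 4.3.3) with filterByExpr, TMM factors (0.957 to 1.07) and a coefficient for each of the 4 groups. The quasi-likelihood tests had 8 residual degrees of freedom and 4.91 prior ones, at a common BCV (biological coefficient of variation) of 19.7%. Their p-values were adjusted by Benjamini-Hochberg over 20280 genes at a threshold of 0.05. The fit was also run on counts simulated from its own estimates of spread, which held no outlying library and no GC trend. Positions, exon lengths and GC come from GENCODE release 29. Replicates differed by more than sampling noise (chi-square over degrees of freedom at least 10.4), so none was counted as a copy.

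The 10 genes, the 7 lists and the tests were chosen with earlier results of these data known. All 10 genes are named whatever their values, as are, for each list and line, up to 2 genes past the threshold, those of smallest adjusted p, and the 3 genes of at least 5 CPM nearest to each of the 3 members of widest range. The alternatives were 3 other scalings, DESeq2 1.42.0, limma 3.58.1 (voom), 2 other filters, a replicate block, fits of 6 libraries, each library left out, and removal of the GC and length trend by an offset (mgcv 1.9.3). The leave-one-out values of ratios and the settings for the lists were chosen after seeing the data. SOD2, CDX1 and CD3E are not analysed here, and a few genes that these rules name are not reported here.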

Additional observations from a re-analysis of the deposited data

Results flagged for a closer look

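For 2 of the 10 genes the response to cantharidin sodium differed between the lines by a test of the difference itself. This count stands beside 8.38% of all tested genes whose effect was higher in MKN1 and 7.3% whose effect was lower. OSGIN1 had an effect in MKN1 minus that in AGS of 2.10 on the log2 scale (edgeR's quasi-likelihood test, adjusted p = 0.00175), from 0.66 in MKN1, which did not pass, and −1.45 in AGS. It was higher in 2 of 3 treated MKN1 libraries than in every untreated one, and lower in 3 of 3 treated AGS libraries. KEAP1 had a difference of 0.73 (adjusted p = 0.029), from −0.09 in MKN1 and −0.82 in AGS, where 3 of 3 treated libraries were lower. The KEAP1 difference was past the threshold in 14 of 21 alternatives and the OSGIN1 difference in all 21.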

How the results depend on the processing

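In AGS, KEAP1 and OSGIN1 passed under all 22 alternatives. The number of the 10 genes past the threshold in AGS was 3, and it was 5 with DESeq2's test, 7 with the 6 AGS libraries alone and 2 to 6 with 1 library left out. Of all tested genes 8368 passed with those 6 libraries alone, against 4214, and 2070 to 5522 with 1 left out. In MKN1 the number was 0, with 1 by DESeq2 size factors, 2 by DESeq2's test, 1 at 5 CPM in 3 libraries, 2 after removal of the GC and length trend and 0 to 2 with 1 library left out. Of all genes 1358 passed there, with 2459 by DESeq2's test, 809 with no filter, 34 with the 6 MKN1 libraries alone and 345 to 3197 with 1 left out, the last without MKN1 untreated replicate 3. For the difference between the lines, 2 of the 10 passed, with 1 under no filter and 1 to 4 with 1 library left out, and 2112 to 4645 genes, against 3180. Both comparisons between lines kept their counts within 1.5 times under every alternative.

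Some changes that did not pass had the opposite sign under an alternative, and the cause was not tested. With 1 library left out, the MKN1 change spanned −0.091 (without untreated replicate 3) to 0.28 for NFE2L2, −0.26 to 0.037 (without treated replicate 2) for KEAP1, −0.21 to 0.080 (without untreated replicate 1) for GCLC, −0.23 to 0.0068 (without treated replicate 2) for TXN and −0.055 to 0.0001 (without treated replicate 3) for SRXN1. In AGS that of TXNRD1 spanned −0.0075 (without treated replicate 2) to 0.17. The difference between the lines spanned −0.24 (without MKN1 untreated replicate 3) to 0.34 for HMOX1, −0.059 (without the same library) to 0.36 for GCLM and −0.24 to 0.14 (without MKN1 untreated replicate 1) for NFE2L2, and OSGIN1 between treated lines spanned −0.20 (without MKN1 treated replicate 3) to 0.34. In MKN1, GCLC was 0.025 and SRXN1 0.063 with library totals alone, and SRXN1 was 0.0029 with upper-quartile factors and 0.011 at 5 CPM in 3 libraries. The NFE2L2 difference was 0.038 with library totals alone. After removal of the GC and length trend, the HMOX1 difference was −0.13, KEAP1 between untreated lines −0.15 and OSGIN1 between treated lines −0.64.

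No consistent pairing by replicate number was seen. Correlations of deviations between treated and untreated libraries of the same number were 0.012, 0.020 and −0.044 in AGS and 0.080, −0.040 and 0.18 in MKN1. Not every library correlated best with its own number. These deviations are taken within groups of 3 libraries, so they cannot exclude pairing. With a replicate block 4067 genes passed in AGS, 1140 in MKN1 and 3089 for the difference. Of the 10 genes, 4 passed in AGS, with GCLC added (adjusted p = 0.0443), 0 in MKN1 and 2 for the difference. At these depths every library held at least 186 counts of each of the 10 genes. Whether counting or spread between libraries limits the calls was not tested.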

Other observations

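A pair of regulators outside the rule for named genes was looked up after its values were seen, because both act on genes described above. BACH1, a haem-binding repressor of HMOX1, averaged 62.2 ± 6.92 CPM in treated AGS and 33.3 ± 2.81 CPM in untreated AGS (SD, n = 3 each), a change of 0.90 on the log2 scale (SE 0.24, adjusted p = 0.0182 by edgeR's quasi-likelihood test). In MKN1 it averaged 71.6 ± 19.7 CPM in treated and 69.3 ± 23.5 CPM in untreated cells (0.05, adjusted p = 0.929), and the difference between the lines, −0.85, did not pass (adjusted p = 0.0981). The BACH1 call in AGS ended without AGS untreated replicate 1 or 3 or AGS treated replicate 2 (adjusted p up to 0.0758). SQSTM1, the p62 adaptor that takes KEAP1 into autophagy and is itself an NRF2 target, averaged 747 ± 40.7 CPM in treated AGS and 1123 ± 85.5 CPM in untreated AGS (−0.59, adjusted p = 0.00368). In MKN1 it averaged 1140.2 ± 109.6 CPM in treated and 993 ± 82.1 CPM in untreated cells (0.20, adjusted p = 0.299), and the effect in MKN1 minus that in AGS was 0.79 (adjusted p = 0.0053). Whether either bears on HMOX1 or KEAP1 mRNA was not tested.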
